A study of Mus musculus with 12 samples.

Results

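The translation initiation factor genes of the mouse are the genes that encode the eukaryotic initiation factors (eIFs), the proteins that bring an mRNA, the initiator tRNA and the ribosome together. Members were the protein-coding genes whose mouse symbol is Eif followed by a digit from 1 to 6, without the 4 kinases Eif2ak1 to Eif2ak4. This rule found 52 of the 37991 genes in the count table, and 50 of them were among the 13538 genes with enough counts to test. Eif4e1b, an oocyte form of the cap-binding protein, and Eif4a3l1 had 0 counts in all 12 samples. A further 4 genes that the annotation names Eif2c1 to Eif2c4 encode Argonaute proteins and were left out, as were 4 pseudogenes and 1 processed transcript.

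Purified resting B cells came from spleens of mice 8 weeks of age that carried the CD23-iCre transgene alone (Cre-only) or the transgene together with floxed Runx1 alleles (Runx1 c-k/o). The CD23 promoter switches on at the transitional B cell stage, and Cre removes exon 4 of Runx1, the gene of a transcription factor that binds DNA through its Runt domain. The control mice thus shared the transgene and differed in the floxed alleles. RNA was taken at rest (0 h) and following 3 h of anti-IgM + IL-4, from 3 replicates of each of the 4 groups. Anti-IgM engages the B cell receptor and IL-4 is a helper T cell cytokine, and together they bring resting B cells into growth before division.

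Initiation begins when eIF2, in its GTP-bound form, delivers the initiator tRNA to the small ribosomal subunit, on which eIF1, eIF1A, eIF3 and eIF5 are assembled. The eIF4F complex (cap-binding eIF4E, scaffold eIF4G and helicase eIF4A) loads this subunit at the cap of the mRNA, and the 4E-binding proteins (4E-BPs) hold eIF4E back until the kinase mTORC1 phosphorylates them. Resting B cells are small cells that make little protein, and activation is known for a rise in ribosome production and protein synthesis that precedes cell division.

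Between 14442251 and 23641552 reads per library were counted on genes, so that 3 counts corresponded to between 0.127 and 0.208 CPM, that is counts scaled to a common library size. Levels below are CPM after TMM normalization, which scales each library so that most genes agree. Summed CPM of B cell markers was between 16515 and 20417 at rest and between 8817 and 14288 at 3 h, plasma cell markers between 59.1 and 284 over all libraries, red cell markers between 12.3 and 409, T cell markers between 2.10 and 6.36, NK cell markers between 0.327 and 2.55, and myeloid markers between 173 and 332 at rest and between 11.2 and 35.0 at 3 h. A pair of libraries stood apart, resting Runx1 c-k/o replicate 2 and 3-h Runx1 c-k/o replicate 1. Each had the highest summed B cell markers of its group (20417 and 14288 CPM), the highest activated B cell markers (3020 and 4155 CPM) and the lowest Xist (295 and 290 CPM), and the part of these in the values of the initiation factor genes was not tested. Of the 50 initiation factor genes tested, 40 were highest in the first library among its 3 replicates and 39 in the second, with a median log2 deviation of 0.39 and 0.41 from the other replicates, and among all tested genes the shares were 50.5% and 41.0%. Runx1 itself, counted over all its exons, read 83.6, 81.8 and 86.7 CPM in resting Cre-only and 101, 95.7 and 103 CPM in resting Runx1 c-k/o cells, so that a count over the whole gene does not check the deletion of exon 4.

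Activation raised most initiation factor genes in both genotypes. In Cre-only cells 40 of the 50 genes were higher at 3 h, 4 were lower and 6 did not pass the test (edgeR's quasi-likelihood test, adjusted p under 0.05). Across all 13538 genes 75.0% were called in this comparison, 38.6% higher and 36.4% lower. The median log2 fold change (3 h over rest) was 1.19 over the initiation factor genes and 0.03 over all genes. In Runx1 c-k/o cells 38 were higher, 3 lower and 9 not called, where 74.3% of all genes were called, 37.7% higher and 36.6% lower, and the medians were 1.19 and 0.00. The same 38 genes were higher in both genotypes, the same 3 lower in both and the same 6 called in neither. Samples at rest and at 3 h did not overlap in 94% of the tested members and 84.4% of all tested genes in Cre-only cells. In Runx1 c-k/o cells these shares were 80% and 72.8%, so a lack of overlap was common among all genes. The rise was 2-fold or more for 27 genes in Cre-only cells and 28 in their Runx1 c-k/o counterparts, and 4-fold or more for 13 and 10. In these bulk samples a change in the kinds of cells present and a change in RNA per cell cannot be told apart, and because CPM is relative to the whole library a change in total RNA per cell is not visible.

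**Figure D1:**
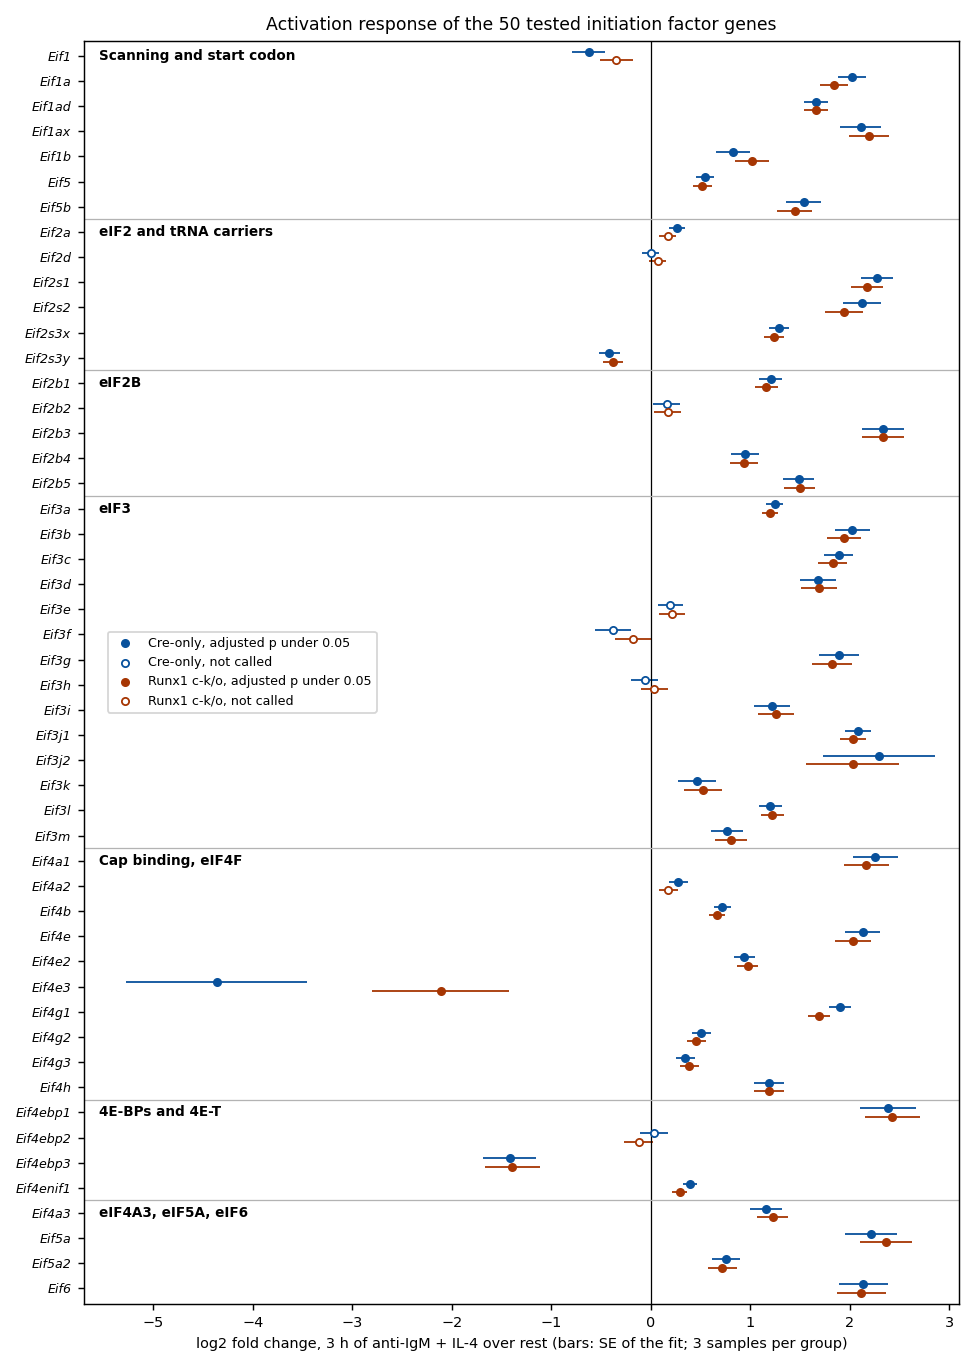
Log2 fold change at 3 h over rest (x axis) for the 50 tested initiation factor genes, grouped by role, in Cre-only (blue) and Runx1 c-k/o (red) cells; filled points passed the test and bars are ±1 SE of the fit. Most points lie to the right of 0 with those of both genotypes close together, while Eif4e3, Eif4ebp3 and Eif2s3y lie to the left as filled points in both and Eif1 in Cre-only cells.

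Taken as a share of all counts, the 52 genes held 0.935%, 0.941% and 0.925% of the 3 resting Cre-only libraries and 1.76%, 1.82% and 1.79% of the 3-h libraries. Those of Runx1 c-k/o cells were 0.944%, 1.09% and 0.921% at rest and 2.08%, 1.81% and 1.84% at 3 h. Every 3-h library lay above every resting library of either genotype, and the highest value of each Runx1 c-k/o group came from the library that stood apart. The mean share rose 1.92-fold in Cre-only cells, 1.94-fold in Runx1 c-k/o cells, and without Eif5a and Eif4a1, the members with large increases in both level and fold, still 1.73-fold and 1.72-fold. The eIF2 group and eIF2B gained most among the initiation groups (2.38-fold and 2.14-fold in Cre-only cells), eIF3 1.99-fold, eIF4F 1.90-fold, and the scanning factors 1.34-fold, as the abundant Eif1 fell while the others of that group rose.

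**Figure D2:**
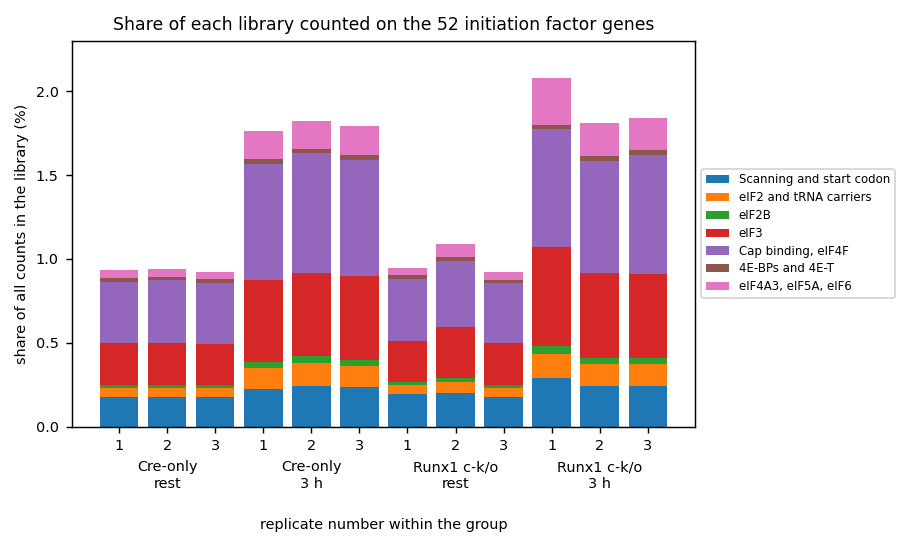
Share of all counts, in percent, held by the initiation factor genes in each of the 12 libraries, stacked by role (bars start at 0). The 3-h libraries lie between 1.76% and 2.08% and the resting ones between 0.921% and 1.09%.

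Of the 10 tested cap-binding and eIF4F genes, 9 were higher and 1 lower at 3 h in Cre-only cells (8 and 1 with Runx1 deleted), with unlike folds among paralogs. Eif4g1, the gene of the main scaffold eIF4G1 (chr16:20668386-20692957, plus strand, mm9), had the smallest adjusted p of all members in Cre-only cells. Its level was 372, 377 and 361 CPM in the resting and 1352, 1400 and 1385 CPM in the 3-h Cre-only samples, and 364, 431 and 360 CPM against 1099, 1224 and 1408 CPM in Runx1 c-k/o samples. All 3-h samples lay above all resting samples. The log2 fold change was 1.90 ± 0.11 (SE; adjusted p = 3.65e-08) in Cre-only cells, 1.69 ± 0.11 (adjusted p = 9.63e-08) in Runx1 c-k/o cells. Its paralog Eif4g3 rose by 0.35 and 0.38 on the log2 scale (a Cre-only call lost when at least 10 counts were required in every sample, adjusted p = 0.0959), and Eif4g2, whose product lacks the eIF4E-binding region, by 0.51 and 0.46.

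The helicase genes exchanged their order. Eif4a1 (chr11:69480438-69485925, minus strand) read 350, 357 and 352 CPM at rest and 1682, 1706 and 1671 CPM at 3 h in Cre-only cells, and 343, 644 and 347 CPM against 2555, 1664 and 1755 CPM in Runx1 c-k/o cells. The value of 644 CPM and that of 2555 CPM belong to the libraries that stood apart, and the groups at rest and at 3 h did not overlap. Its log2 fold change was 2.26 ± 0.23 (adjusted p = 2.81e-06) in Cre-only cells, 2.16 ± 0.23 (adjusted p = 4.24e-06) in Runx1 c-k/o cells. Eif4a2, which encodes a closely related helicase, went from 780, 798 and 797 CPM to 931, 994 and 952 CPM in Cre-only cells, a log2 fold change of 0.28 (adjusted p = 0.0192). That call was lost in 7 of 14 alternatives, which included the replicate number as a block within genotype (adjusted p = 0.0574), DESeq2's size factors (adjusted p = 0.0961), a pair of leave-one-out fits (adjusted p = 0.0592 without resting replicate 1 and 0.0608 without 3-h replicate 2) and 1 RUVs factor of unwanted variation (log2 0.10, adjusted p = 0.43), and Eif4a2 was not called in Runx1 c-k/o cells (log2 0.18, adjusted p = 0.113). Per kilobase of exon, the ratio of Eif4a1 to Eif4a2 was 0.554, 0.552 and 0.543 in resting and 2.23, 2.12 and 2.16 in 3-h Cre-only samples. In Runx1 c-k/o cells it was 0.490, 0.966 and 0.533 at rest and 3.06, 2.45 and 2.3 at 3 h, so that Eif4a2 was ahead in all 6 resting and Eif4a1 in all 6 activated samples. Small nucleolar RNAs lie on the same strand within 6.62% of the exon bases of Eif4a1 and 9.57% of those of Eif4a2.

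Among the cap-binding proteins, Eif4e, the canonical form (chr3:138189155-138220563, plus strand), rose and Eif4e3 fell. Eif4e read 53.9, 54.9 and 54.5 CPM at rest and 236, 249 and 230 CPM at 3 h in Cre-only cells, a log2 fold change of 2.13, and 54.2, 86.4 and 50.9 against 312, 225 and 245 CPM in Runx1 c-k/o cells, a log2 fold change of 2.03. The resting and 3-h samples did not overlap in either genotype. Eif4e2, whose product binds the cap without joining eIF4G and is known as a repressor of translation, rose by 0.94 and 0.97 on the log2 scale.

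Eif4e3, an unusual cap-binding protein (chr6:99207478-99616791, minus strand), was the member with the largest fall in Cre-only cells. Its level was 8.34, 7.23 and 7.62 CPM at rest (173, 127 and 123 counts) and 0.388, 0.457 and 0.255 CPM at 3 h (9, 7 and 4 counts), with no overlap. The log2 fold change was −4.36 ± 0.91 (adjusted p = 0.000248), and it was −1.72 and no longer called with 1 RUVs factor (adjusted p = 0.274). In Runx1 c-k/o cells the values were 6.09, 3.36 and 6.90 CPM at rest and 0.193, 3.48 and 0.177 CPM at 3 h, that is 3, 53 and 3 counts. One 3-h sample, replicate 2, reached the resting level, and the log2 fold change of −2.11 ± 0.69 (adjusted p = 0.0126) became −4.82 without it and 0.28 with 1 RUVs factor (adjusted p = 0.828), and was not called with only the groups compared (adjusted p = 0.0687). The helicase partners Eif4b and Eif4h, which stimulate eIF4A, were both higher at 3 h, with log2 fold changes of 0.72 and 1.18 in Cre-only cells (0.66 and 1.19 with Runx1 deleted).

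The promoters of the 3 eIF4F subunit genes Eif4e, Eif4g1 and Eif4a1 each hold the hexamer CACGTG, the E-box recognised by basic helix-loop-helix factors such as MYC and its partners. The search used RefSeq promoter windows (GRCm38.p6, 250 bases before to 50 after each start), which were found for 40 members, 39 of them tested; the hexamer reads the same on both strands. It was present in 10 of the 39 members (25.6%), in 12% of the 9805 tested genes with a window and in 8.09% of all 27025 genes. Of the 10 genes, 9 were higher at 3 h in Cre-only cells, Eif3k whose call was lost in every leave-one-out fit, among them, and Eif3f was not called; the share higher was 80.0% over all 50 members and 38.6% over all genes. Myc itself read 328, 374 and 425 CPM in resting and 964, 1064 and 1015 CPM in 3-h Cre-only samples. Stretches of 60 bases are shown for the 9 genes with a box before the start, because they let the shared letters be read beside the unlike surroundings; capitals mark the E-box.
Eif4e, chr3:138527177-138527236, plus strand: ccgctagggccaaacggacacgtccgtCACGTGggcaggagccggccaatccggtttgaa
Eif4g1, chr16:20672646-20672705, plus strand: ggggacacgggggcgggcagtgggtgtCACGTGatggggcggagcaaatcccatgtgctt
Eif4a1, chr11:69672580-69672639, minus strand: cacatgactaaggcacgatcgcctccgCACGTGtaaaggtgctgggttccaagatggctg
Eif4h, chr5:134639473-134639532, minus strand: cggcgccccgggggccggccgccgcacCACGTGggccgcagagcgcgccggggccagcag
Eif5a, chr11:69921428-69921487, minus strand: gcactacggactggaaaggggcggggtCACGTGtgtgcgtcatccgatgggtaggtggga
Eif5a2, chr3:28781133-28781192, plus strand: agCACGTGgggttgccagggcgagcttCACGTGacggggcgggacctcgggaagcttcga
Eif1b, chr9:120492546-120492605, plus strand: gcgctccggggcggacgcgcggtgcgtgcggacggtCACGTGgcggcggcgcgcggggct
Eif3k, chr7:28981900-28981959, minus strand: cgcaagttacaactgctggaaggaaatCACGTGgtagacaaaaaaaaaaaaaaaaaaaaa
Eif3f, chr7:108934320-108934379, plus strand: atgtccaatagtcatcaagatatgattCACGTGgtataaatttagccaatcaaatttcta

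The centre of the box shown lay between 21 bases (Eif1b) and 186 bases (Eif4a1) before the start, and 51 bases before it in Eif4g1, 61 in Eif4e and 71 in Eif5a. The box shown is the nearest one before a start, and in Eif5a, which had 6 windows, the same box lay 182 bases before another start. Eif4g1 held a further box centred 18 bases after its start, and Eif4e a further box 225 bases before its start. A gene counted as holding a motif when any of its windows did, and 5 members had more than 1 window. Eif5a2 held a pair of boxes within its 60 bases, and in Eif3a the box lay 25 bases after the start. Other motifs were searched on both strands in the same windows. CCGGAAG, a motif of ETS factors, was found in 38.5% of the 39 members and 20.6% of the tested genes, and the GC box GGGCGG in 79.5% and 67.2%. TGTGGT, the core bound by RUNX proteins, was found in 4 members (10.3%) and in 15.7% of the tested genes, and CCAAT in 33.3% and 43.0%. None of these letters marks a site of binding by itself.

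The inhibitors of eIF4E did not move together. Eif4ebp1, which encodes the 4E-BP best known as an mTORC1 target (chr8:28370799-28386128, plus strand), read 9.83, 8.14 and 9.42 CPM at rest and 42.4, 48.4 and 52.3 CPM at 3 h in Cre-only cells. The Runx1 c-k/o samples read 9.43, 21.9 and 12.1 CPM at rest and 108, 62.2 and 63.6 CPM at 3 h. These are the largest rises among the 50 genes in fold (log2 2.38 and 2.43; adjusted p = 1.05e-05 and 8.20e-06), and the groups at rest and 3 h did not overlap. Eif4ebp2, the more abundant 4E-BP of resting cells, read 94.2, 96.1 and 87.5 CPM at rest and 94.0, 92.8 and 97.2 CPM at 3 h in Cre-only cells, and its interval at ±2 SE lay within a 2-fold change. With 1 RUVs factor it was called higher, by 0.58 in Cre-only cells (adjusted p = 0.000657) and by 0.43 in Runx1 c-k/o cells (adjusted p = 0.00683). Per kilobase, the ratio of Eif4e to Eif4ebp2 went from between 0.354 and 0.386 to between 1.47 and 1.66 in Cre-only cells, while the ratio of Eif4e to Eif4ebp1 was 1.87, 2.29 and 1.97 at rest and 1.89, 1.75 and 1.5 at 3 h. With Runx1 deleted the ratio to Eif4ebp1 was 1.96, 1.34 and 1.43 at rest and 0.987, 1.23 and 1.31 at 3 h, and that to Eif4ebp2 went from 0.371, 0.653 and 0.328 to 3.20, 1.60 and 1.54.

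Eif4ebp3 had few counts, 51, 51 and 37 at rest and 26, 17 and 9 at 3 h in Cre-only cells and 40, 29 and 39 against 11, 16 and 14 in Runx1 c-k/o cells. It was lower at 3 h in both (log2 −1.42 and −1.39; adjusted p = 0.000284 and 0.000523), with no overlap, but 67.3% of its exon bases lie in exons of Ankhd1 on the same strand, and its call was lost with 1 RUVs factor (adjusted p = 0.12 and 0.14). Eif4enif1, which encodes the eIF4E transporter 4E-T, rose by 0.39 and 0.29, the latter call being lost with only the groups compared (adjusted p = 0.0534).

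Of the 6 genes of eIF2 and other tRNA carriers 4 were higher and 1 (Eif2s3y) lower in Cre-only cells. Of the 5 genes of the exchange factor eIF2B, which returns eIF2 to its GTP form, 4 were higher and 0 lower. Eif2s1, the alpha subunit whose phosphorylation slows initiation under stress (chr12:79962806-79987997, plus strand), read 56.0, 55.7 and 57.3 CPM at rest and 252, 297 and 270 CPM at 3 h in Cre-only cells. It read 58.7, 84.3 and 55.5 CPM against 362, 259 and 271 CPM in Runx1 c-k/o cells. The 3-h samples all lay above the resting ones, with log2 fold changes of 2.28 ± 0.16 (adjusted p = 1.50e-07) and 2.17 ± 0.16 (adjusted p = 2.55e-07). Eif2s2, the beta subunit, followed at 2.12 and 1.94. The 4 eIF2B genes that rose did so in both genotypes, from 0.95 in Cre-only cells for Eif2b4 to 2.33 for Eif2b3, and Eif2b5, the catalytic subunit, rose by 1.48 and 1.5. Eif2b2 was not called (log2 0.16 and 0.17), and with 1 RUVs factor it was called lower (−0.34 and −0.37). Eif2a and Eif2d encode other carriers of initiator tRNA that do not belong to eIF2. Eif2a was called higher in Cre-only cells (log2 0.26, adjusted p = 0.012), a call lost in 5 of 14 alternatives, among them DESeq2 (adjusted p = 0.0765) and 1 RUVs factor (log2 0.07, adjusted p = 0.577), and Eif2d was not called, at −0.00 and 0.07.

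The gamma subunit of eIF2 is encoded on both sex chromosomes, and the copies moved in opposite directions. Eif2s3x (X chromosome, 91434046 to 91458201, minus strand) went from 182, 196 and 188 CPM to 431, 497 and 455 CPM in Cre-only cells and from 183, 220 and 189 to 497, 429 and 467 CPM in Runx1 c-k/o cells. Eif2s3y (Y chromosome, 346986 to 365290, plus strand) went from 65.9, 60.4 and 53.9 to 48.5, 44.7 and 41.5 CPM and from 65.5, 63.3 and 56.1 to 50.1, 48.6 and 43.5 CPM. For either gene the groups at rest and 3 h did not overlap. The log2 fold changes were 1.29 and 1.24 for Eif2s3x and −0.42 and −0.38 for Eif2s3y (adjusted p = 0.00273 and 0.00523). Per kilobase, Eif2s3x was between 3.02 and 3.80 times Eif2s3y at rest and between 9.65 and 12.1 times at 3 h over all samples. Their coding sequences share 86.3% of 1419 aligned bases and no stretch of 50 bases. Among the other Y-linked genes read, Ddx3y and Uty were lower at 3 h too in Cre-only cells, while Kdm5d overlapped. Ddx3y read 136, 135 and 151 CPM at rest and 106, 100.0 and 104 CPM at 3 h. Uty read 16.8, 14.3 and 16.1 against 11.1, 10.8 and 12.6 CPM. Kdm5d read 41.6, 39.0 and 31.8 against 40.4, 36.6 and 31.4 CPM. The sum of the 4 Y-linked genes, Eif2s3y among them, went from between 248 and 260 to between 190 and 206 CPM. Xist, made in female cells, lay between 536 and 625 CPM at rest and between 622 and 785 CPM at 3 h in these samples. Both Xist and Y-linked RNA were present in every library, the labels do not give the sex of the mice, and the part of the mix of cells in the change of Eif2s3y was not tested.

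Of the 14 subunit genes of eIF3, the large scaffold on the small ribosomal subunit, 11 were higher and 0 lower in either genotype. Eif3a, the largest subunit (chr19:60837019-60866596, minus strand), read 462, 466 and 461 CPM at rest and 1095, 1095 and 1100 CPM at 3 h in Cre-only cells. The Runx1 c-k/o samples read 463, 500 and 443 against 1048, 1043 and 1132 CPM. Its replicates lay close together and far from the other time point, with log2 fold changes of 1.24 ± 0.085 (adjusted p = 9.39e-08) and 1.20 ± 0.085 (adjusted p = 1.52e-07). The core subunits Eif3b, Eif3c and Eif3g rose by 2.02, 1.89 and 1.89 in Cre-only cells and by 1.94, 1.83 and 1.82 in Runx1 c-k/o cells, and Eif3i by 1.22 and 1.25. Eif3d, whose product can itself bind the cap of some mRNAs, rose by 1.68 and 1.69, although 32.7% of its exon bases overlap a gene on the other strand.

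The other 3 eIF3 subunit genes were called in neither direction. Eif3e read 258, 260 and 244 CPM at rest and 271, 314 and 288 CPM at 3 h in Cre-only cells, Eif3h 221, 239 and 211 against 208, 221 and 214 CPM, and Eif3f 278, 299 and 306 against 215, 231 and 232 CPM. None of these passed the test in either genotype (log2 0.20, −0.06 and −0.38 in Cre-only cells, 0.21, 0.03 and −0.18 in Runx1 c-k/o cells), yet Eif3f lay lower in every 3-h than in every resting Cre-only sample. In Cre-only cells Eif3f was called lower in 5 of 14 alternatives, which included DESeq2 (adjusted p = 0.0312) and only the groups compared (adjusted p = 2.22e-07), and the latter fit also called Eif3h lower (adjusted p = 0.0181) and Eif3e higher (adjusted p = 0.0294). Eif3h and Eif3f were called lower with 1 RUVs factor, at −0.58 and −1.11 in Cre-only cells, and at −0.52 and −0.96 with Runx1 deleted. Eif3k went from 139, 138 and 126 to 192, 181 and 181 CPM in Cre-only cells, a log2 fold change of 0.46 (adjusted p = 0.0441). This call was lost when any of the 6 samples was left out and with the block within genotype (adjusted p = 0.0741), and with 1 RUVs factor the sign turned, to −0.33 in Cre-only cells and, from 0.52, to −0.32 in Runx1 c-k/o cells. Eif3m rose by 0.77 and 0.81, and these calls too were lost with the factor.

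Eif3j1 and Eif3j2 encode eIF3j, a loosely bound subunit that helps free the small ribosomal subunit. Eif3j1 lies on chromosome 2 (121854282 to 121882334, plus strand) and Eif3j2 on chromosome 18 (43635074 to 43637450, minus strand) in a single exon. Their coding sequences match in 100% of 786 aligned bases, with a shared run of 784, so that reads from one cannot be told from reads of the other within it, and how such reads were counted is not given. Eif3j1 went from 32.1, 36.8 and 31.3 to 129, 152 and 143 CPM in Cre-only cells and from 27.2, 38.6 and 29.9 to 137, 116 and 138 CPM in Runx1 c-k/o cells (log2 2.08 and 2.03; adjusted p = 5.83e-08 and 8.98e-08). Eif3j2 went from 2.31, 0.854 and 1.67 to 9.97, 4.18 and 9.81 CPM and from 4.86, 9.11 and 2.32 to 31.3, 22.4 and 12.8 CPM (log2 2.29 and 2.03). All 3-h samples of each genotype lay above its resting samples for both genes. For Eif3j2 the calls were lost with 1 RUVs factor (adjusted p = 0.203 and 0.273), and 15 counts were its lowest value in a library.

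The factors that scan for the start codon rose except for Eif1. Eif1a, on chromosome 18 (46757358 to 46769879, plus strand), and Eif1ax, on the X chromosome (155810110 to 155827860, plus strand), both encode eIF1A, which keeps the scanning ribosome open, and share 85.5% of 435 coding bases. Eif1a went from 54.8, 57.9 and 53.0 to 209, 244 and 219 CPM in Cre-only cells and from 59.0, 79.9 and 58.2 to 277, 206 and 224 CPM in Runx1 c-k/o cells. Eif1ax went from 49.5, 48.7 and 46.5 to 194, 220 and 210 CPM and from 44.0, 80.4 and 45.3 to 317, 231 and 226 CPM. Neither gene showed overlap between rest and 3 h, and the log2 fold changes were 2.02 and 1.84 for Eif1a and 2.11 and 2.19 for Eif1ax. Eif1ad, which encodes a protein with an eIF1A domain, went from 44.6, 48.3 and 45.4 to 137, 152 and 148 CPM in Cre-only cells (log2 1.66, adjusted p = 1.47e-07) and rose by 1.66 in Runx1 c-k/o cells as well (adjusted p = 1.80e-07). Eif5b, the GTPase that joins the large ribosomal subunit, rose by 1.54 and 1.44. Eif5, which triggers GTP hydrolysis on eIF2 and was already abundant at rest, rose by 0.54 and 0.52.

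Eif1, the gatekeeper of start-codon choice (chr11:100181199-100183410, plus strand), read 708, 717 and 673 CPM at rest and 443, 457 and 462 CPM at 3 h in Cre-only cells. The 3-h samples all lay below the resting ones (log2 −0.62 ± 0.17, adjusted p = 0.00441). In Runx1 c-k/o cells it read 777, 923 and 734 CPM at rest and 847, 555 and 509 CPM at 3 h, with overlap through 3-h replicate 1, and was not called (log2 −0.35, adjusted p = 0.0736), although 6 of 15 alternatives called it lower. Without that library the log2 fold change was −0.62 and passed the test, and the difference between the genotypes in this change was not called (interaction 0.28, adjusted p = 0.999). Its paralog Eif1b, at 16.2, 16.7 and 15.2 CPM at rest, rose by 0.83 and 1.01, calls that were lost with 1 RUVs factor (adjusted p = 0.282 and 0.0588).

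Genes of factors known mainly for steps other than initiation also rose. Eif5a, whose product carries hypusine and helps the ribosome through difficult peptide bonds (chr11:69730216-69735460, minus strand), went from 285, 287 and 271 to 1273, 1293 and 1339 CPM in Cre-only cells and from 257, 546 and 271 to 2458, 1516 and 1537 CPM in Runx1 c-k/o cells. No resting sample reached a 3-h sample, and the highest values of the Runx1 c-k/o groups again belonged to the libraries that stood apart. The log2 fold changes were 2.21 ± 0.26 (adjusted p = 1.12e-05) and 2.36 ± 0.26 (adjusted p = 7.19e-06). Eif5a2, its scarce paralog, rose by 0.75 and 0.72, so that per kilobase Eif5a went from between 55.2 and 62.4 times to between 146 and 172 times Eif5a2 in Cre-only cells. Eif6, which keeps the large ribosomal subunit apart during its assembly, rose by 2.14 and 2.12. Eif4a3, a helicase of the exon junction complex, rose by 1.16 and 1.22.

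**Figure D3:**
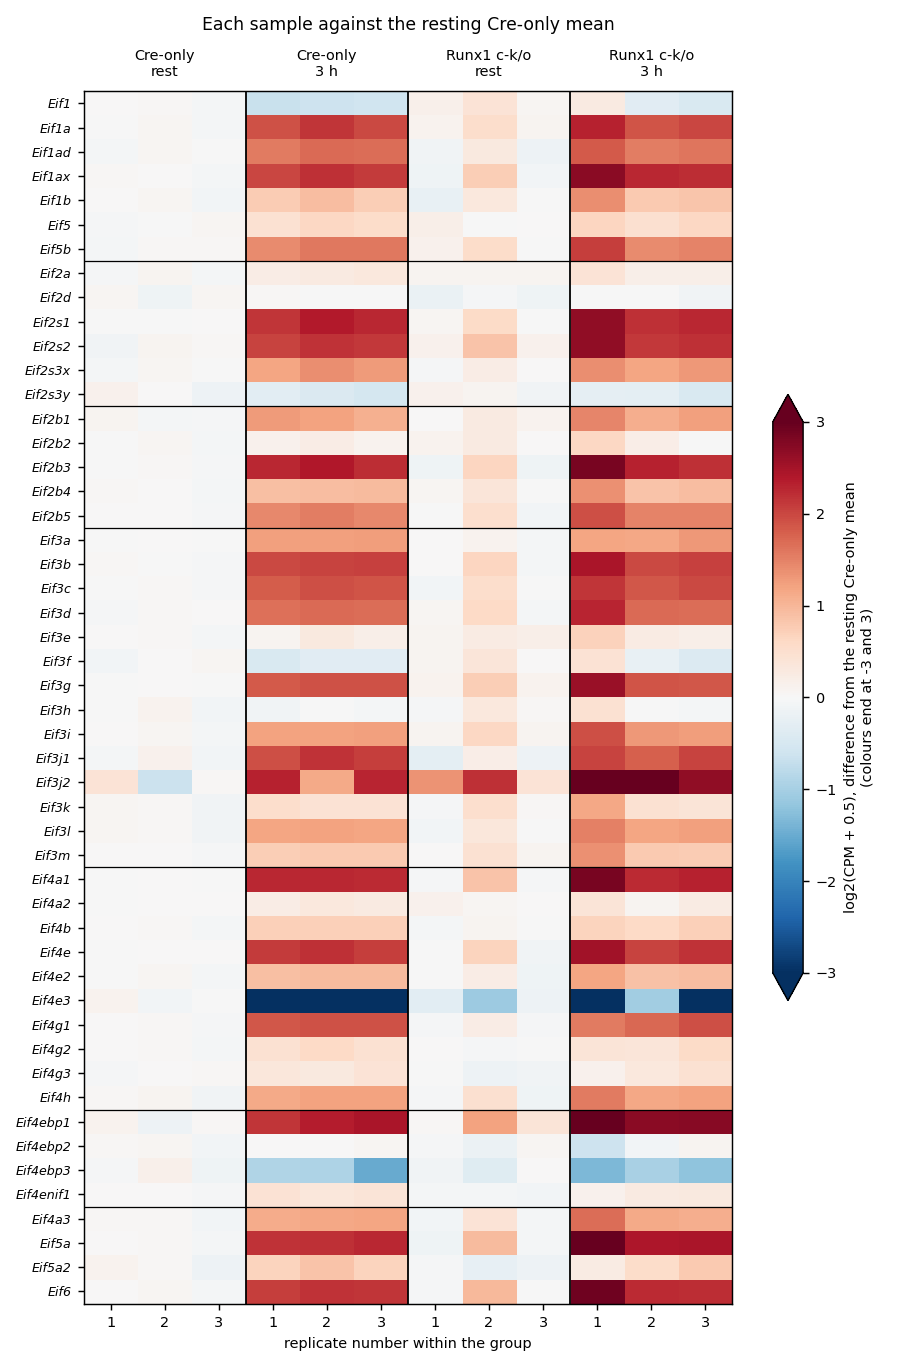
Each of the 50 tested genes (rows, by role) in each of the 12 samples (columns, by group), coloured by log2(CPM + 0.5) minus the gene's mean over resting Cre-only samples, with colours ending at −3 and 3. Most rows turn red in the 3-h columns of both genotypes, and resting Runx1 c-k/o replicate 2 and 3-h replicate 1 are redder than the other replicates of their groups.

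Compared with each other per kilobase of exon, the genes changed order on activation. In resting Cre-only cells Eif1 was highest at 334 ± 11.1 CPM per kilobase (SD, n = 3), followed by Eif3h at 179 ± 11.3, Eif3e at 165 ± 5.52, Eif5 at 162 ± 6.22 and Eif4a2 at 148 ± 1.94. The gap from Eif1 to Eif3h exceeded the spread of replicates many times over, whereas Eif3e and Eif5 lay within 1 SD of each other. At 3 h Eif5a led at 548 ± 14.3, ahead of Eif4a1 at 389 ± 4.18, Eif3c at 322 ± 13.1 and Eif3g at 269 ± 8.31, with Eif1 at 216. Of the tested genes, Eif3j2, Eif4e3, Eif5a2, Eif2b3 and Eif4ebp3 had the lowest levels at rest, between 0.679 and 3.43 CPM per kilobase. The eIF3 subunit genes Eif3e and Eif3h, which were not called, were thus among the highest at rest, while Eif3b, Eif3c and Eif3g, which rose 4-fold or nearly so, started lower, at 54.6, 87.0 and 72.5 CPM per kilobase.

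**Figure D4:**
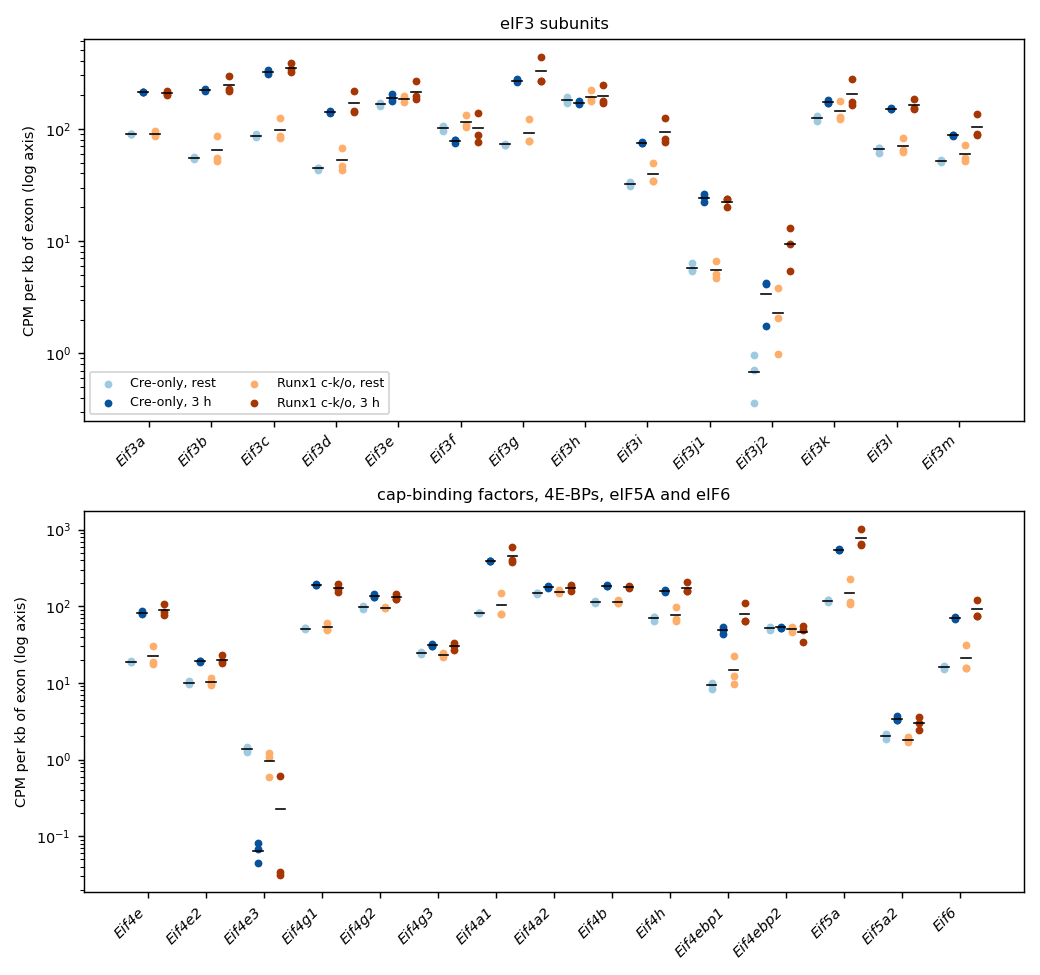
Level in CPM per kilobase of exon (log axis) for the eIF3 subunit genes (top) and for cap-binding, eIF4F, 4E-BP, eIF5A and eIF6 genes (bottom), with 1 point per sample in each of the 4 groups and a line at the mean. Eif3e and Eif3h lie near the same level at rest and 3 h, Eif5a reaches 548 in 3-h Cre-only cells, and 1 of the 3-h Runx1 c-k/o samples of Eif4e3 lies far above the others.

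The comparison of genotypes asks whether deletion of Runx1 alters this set of genes. At rest 0 of the 50 genes were called by edgeR's quasi-likelihood test, where 1.49% of all genes were called. An unadjusted p under 0.05 was found for 2 of the 50 and for 1496 of all 13538 genes. DESeq2 called 1 of the 50 (Eif3j2) and 378 of all genes. In 9 genes all Runx1 c-k/o samples lay above all Cre-only samples and in 2 below, 22.0% together, where the share over all genes was 23.7%. The median log2 difference (Runx1 c-k/o over Cre-only) was 0.13, against 0.03 over all genes. Of the 50, 41 (82%) were above 0, beside 55.6% of all genes. Leaving out both libraries that stood apart, an alternative added after the data were seen, gave a median of −0.02 with 23 of 50 above 0. The interval at ±2 SE lay within a 2-fold change for 47 genes, all but Eif3j2, Eif4e3 and Eif4ebp1, so that smaller differences remained possible.

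At 3 h again 0 of the 50 were called, where 2.77% of all genes were called. An unadjusted p under 0.05 was found for 4 of the 50 and for 2194 of all 13538 genes. DESeq2 called 1 of the 50 (Eif3j2) and 707 of all genes. The fit with 1 RUVs factor called 1 of the 50 (Eif1, log2 0.32, adjusted p = 0.00575) and 1036 of all genes. The genotypes did not overlap in 8 genes, 7 above and 1 below, or 16% together, where the share over all genes was 21.8%. The median was 0.14 against 0.01 over all genes, and 37 of the 50 (74%) were above 0, beside 51.0% of all genes. For 46 genes the interval lay within a 2-fold change, Eif5a being the further exception. Without the pair of libraries the median was 0.01, 27 of 50 were above 0 and 3 genes were called higher in Runx1 c-k/o cells, where 6.65% of all genes were called. These were Eif4ebp1 (log2 0.43, adjusted p = 0.00787), Eif5a (0.25, adjusted p = 0.00815) and Eif1 (0.25, adjusted p = 0.0164), each on 2 Runx1 c-k/o samples, which are assumed to vary like the rest. With all samples their differences were 0.71, 0.50 and 0.49 (adjusted p = 0.223, 0.364 and 0.168).

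**Figure D5:**
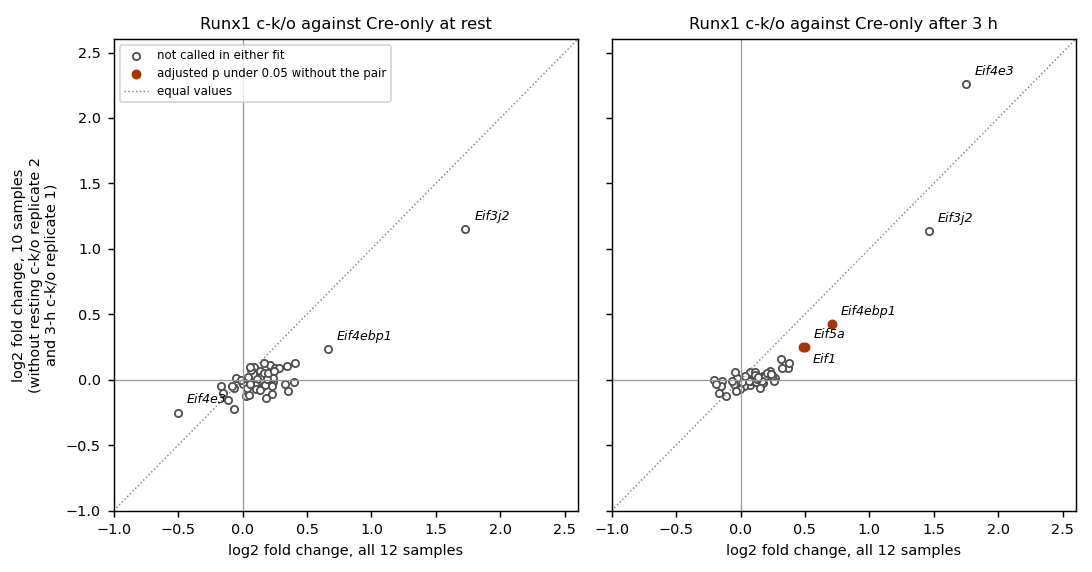
Log2 fold change of Runx1 c-k/o over Cre-only cells for the 50 tested genes, at rest (left) and at 3 h (right), with all 12 samples on the x axis and without the pair of libraries that stood apart on the y axis; red points were called in the latter fit and the dotted line marks equal values. Most points spread to the right of 0 on the x axis (medians 0.13 and 0.14) and lie around 0 on the y axis (medians −0.02 and 0.01).

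Eif3j2 had the largest difference at rest. All 3 Runx1 c-k/o samples (4.86, 9.11 and 2.32 CPM) lay above the Cre-only samples (2.31, 0.854 and 1.67 CPM), the closest pair being nearly equal, with a log2 difference of 1.73 ± 0.58 (adjusted p = 0.229, and 0.0333 by DESeq2). At 3 h the difference was 1.46 ± 0.45 (adjusted p = 0.13, and 0.0399 by DESeq2), again without overlap. Eif3j1, whose reads cannot be told apart from those of Eif3j2 within the coding sequence, differed by −0.07 and −0.11. Eif4e3 at 3 h differed by 1.75 ± 0.99, and leaving out single samples took this from −0.97 to 2.29, the lowest value being the one without Runx1 c-k/o replicate 2.

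The change on activation did not differ detectably between the genotypes. The interaction was called for 0 of the 50 genes, where 0.0813% of all genes were called. None of the 50 had an unadjusted p under 0.05, where 686 of all 13538 genes did. The interval was within a 2-fold difference for 48 genes, the exceptions being Eif3j2 and Eif4e3. Without the pair of libraries Eif5a was called (log2 0.34, adjusted p = 0.0435), where 1.36% of all genes were called; with all samples its interaction was 0.15 (adjusted p = 0.999).

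The other genes of the pathway were read from lists of the machinery around the initiation factors. Of 12 tested elongation and termination factors, 9 were higher and 1 lower at 3 h in Cre-only cells, while the Runx1 c-k/o cells gave 10 higher and 0 lower, among them the release factor gene Gspt1 (log2 2.13 and 1.91) and the ribosome recycling gene Abce1 (2.04 and 1.79). Of 12 initiation partners with other names, 9 were higher and 1 lower in either genotype, among them, by smallest adjusted p, the helicase gene Dhx29 (1.35 and 1.11) and the nuclear cap-binding gene Ncbp1 (1.20 and 1.20), with Paip2, an inhibitor of poly(A)-binding protein, lower (−1.05 and −1.23). Of 10 mitochondrial translation factors 9 were higher and 0 lower in either, for example Gfm1 (1.47 and 1.55). In Cre-only cells 75%, 75% and 90% of these lists, in this order, passed the test as higher, beside 38.6% of all tested genes. With Runx1 deleted the shares were 83.3%, 75% and 90%, beside 37.7%. Counting either direction, both genotypes gave 83.3%, 83.3% and 90%, where all tested genes gave 75.0% and 74.3%.

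Of 28 regulators of initiation, 13 (46.4%) were higher and 10 lower in Cre-only cells, where 38.6% and 36.4% of all genes were; with Runx1 deleted these were 12 and 9. Larp1, which encodes a binder of ribosomal protein mRNAs, rose by 2.28 and 2.06. Mlst8, a part of mTOR complexes, rose by 1.47 and 1.16, and Sesn2 by 1.81 and 1.67. Those that fell included Pdcd4, an inhibitor of eIF4A (−1.55 and −1.77), Mknk2, an eIF4E kinase (−1.39 and −1.34), and Ppp1r15a, which directs the dephosphorylation of eIF2 alpha (−2.16 and −1.79). Between genotypes 1 of the 28 was called, at 3 h, or 3.57% where 2.77% of all genes were: Eif2ak2, the interferon-inducible eIF2 kinase PKR, at 15.1, 11.7 and 24.4 CPM in the Cre-only samples and at 24.4, 49.0 and 54.4 CPM in the Runx1 c-k/o samples. The groups overlapped, as the lowest Runx1 c-k/o value lay just below the highest Cre-only value (log2 1.32 ± 0.303, adjusted p = 0.0404). That lowest value came from the 3-h library that stood apart.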

How the data were processed

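Poly(A) RNA of purified splenic B cells was sequenced as paired ends from stranded libraries. Per the labels and the study's methods, the authors used CASAVA 1.8.4, aligned reads to mm9 with TopHat2 2.0.11 and used featureCounts for counting on the Ensembl annotation. Raw counts per gene and library were deposited; the strand setting and the handling of reads with several alignments are not given in the sources used here. Spike-in RNA was added, but no spike-in entry was among the genes analysed here.

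Counts were tested with edgeR 4.0.16 (R 4.3.3): filterByExpr with a minimum of 10 counts, TMM, and the robust quasi-likelihood test over all 12 samples with 1 term for each of the 4 groups. P-values were adjusted by Benjamini-Hochberg over all 13538 genes at 0.05. An exact permutation test of 3 against 3 samples cannot go below 0.1. Gene names, positions and exon lengths (all annotated exons of a gene merged) came from GENCODE vM1 (mm9) and promoters from RefSeq (GRCm38.p6). Floors cover counting error only. Same-numbered Cre-only samples deviated together (correlations 0.275, 0.176 and 0.144), so the number was used as a block in alternative fits. These blocks covered the Runx1 c-k/o samples too, although the number did not pair them (−0.254, −0.264 and 0.254). Resting replicate 2 and 3-h replicate 1 of Runx1 c-k/o, the libraries that stood apart, correlated at 0.477. The other unlike-numbered pairs of this genotype lay between −0.428 and 0.309, and the reason was not tested. Alternatives were DESeq2 1.42.0, its size factors, other filters, 1 RUVs factor computed from its definition, replicate blocks, only the groups compared and each sample left out. Every member could be named by the rule used; per-sample values were given for those with the smallest adjusted p and for paralogs, and other members shown in full were chosen after their values were seen. Members, lists and tests were chosen with earlier results of these data known. The models were tested on simulated data.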

Additional observations from a re-analysis of the deposited data

How the results depend on the processing

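Member by member, the activation results in Cre-only cells kept their side of the threshold in 658 values over the alternatives, gained the call in 9, lost it in 29 and turned direction in 2; in Runx1 c-k/o cells the numbers were 717, 14, 12 and 5. A turn is a change of sign where either fit called the gene; genes called in neither fit, such as Eif2d, Eif3e and Eif4ebp2, also changed sign among the 658 and 717 values. The turns so defined came with 1 RUVs factor: Eif2b2 (−0.34) and Eif3k (−0.33) in Cre-only cells, and Eif2b2 (−0.37), Eif3h (−0.52), Eif3k (−0.32), Eif4e3 (0.28) and Eif4ebp2 (0.43) in Runx1 c-k/o cells. That factor left 35 genes higher and 6 lower in either genotype; the cause was not tested. Requiring at least 10 counts in every sample shifted the log2 fold changes of single genes by a median of −0.16 (Cre-only) and −0.10 (Runx1 deleted). The median change over the genes of each fit went from 0.027 to −0.003 in Cre-only cells. With Runx1 deleted this median went up, from 0.005 to 0.024. In the comparisons of genotype, DESeq2 called 1 gene at rest and 1 at 3 h, 1 RUVs factor called 1 at 3 h, and leaving out both libraries that stood apart called 3 at 3 h and 1 in the interaction. Over all genes DESeq2 called 378 at rest and 707 at 3 h, and 1 RUVs factor called 1036 at 3 h. Without Eif5a and Eif4a1 the summed shares were 0.867% and 1.5% in Cre-only cells at rest and 3 h, against 0.902% and 1.55% in Runx1 c-k/o cells. With the replicate block over all samples 40 genes were higher and 4 lower in Cre-only cells, 38 and 3 in Runx1 c-k/o cells, and the block within genotype gave 38 and 4, and 37 and 3, with no other change of a Cre-only call than those of Eif3k and Eif4a2. Eif4e3, Eif4ebp3 and Eif3j2 had too few counts in some libraries for firm values.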
